A study of Mus musculus with 21 samples.

Results

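The 9 genes described here are those of serotonin synthesis (*Tph1*, *Tph2* and *Ddc*), its vesicular packaging (*Slc18a2*), 4 serotonin receptors (*Htr1b*, *Htr1d*, *Htr2b* and *Htr3a*) and the prolactin receptor *Prlr*. They were chosen by symbol, and each symbol matched a single Ensembl identifier among the 55536 genes counted in mouse islets after a regular diet (RD), a high-fat diet (HFD) or the latter formulated with O304 (HFD-O304). Of the 9 genes, 8 had at least 10 read pairs summed over the 21 samples and were tested together with the other genes that reached this minimum, 27229 in all, while *Htr2b* had 4 and was not tested.

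Serotonin is made from tryptophan in a pair of steps. Tryptophan hydroxylase, encoded by *Tph1* outside the brain and by *Tph2* in serotonergic neurons, adds a hydroxyl group with the help of the cofactor tetrahydrobiopterin, and aromatic L-amino acid decarboxylase, encoded by *Ddc*, then removes the carboxyl group. Vesicular monoamine transporters load the amine into secretory granules, and monoamine oxidases break it down. In mouse β-cells, lactogenic hormones of pregnancy acting through the prolactin receptor, JAK2 and STAT5 are known to induce *Tph1* and *Tph2*, and serotonin then acts on β-cells through several of its receptors.

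All mice were males of the inbred CBA strain, and the 3 groups differed in diet only, with no transgene or deletion. Diets began at 10 weeks of age, and the methods give 9 weeks and the results text 10 weeks of feeding. The third group received the HFD with O304, a pan-activator of the energy-sensing kinase AMPK, at 0.8 mg per g of that diet. Each of the 7 samples per group was RNA from 150 islets of a pool of 5 mice, so that differences between single animals were not measured. HFD-O304 replicate 1 carries the diet tag of HFD in the labels, and its title, which names HFD-O304, decided its group.

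Read pairs counted on genes ranged from 13809266, in HFD-O304 replicate 2, to 48922569 per sample, with a median of 38719302. The β-cell genes *Ins2*, *Ins1* and *Iapp* had the 3 highest levels per kilobase of all genes, and *Gcg* of α-cells had the fourth. Replicates 1 to 4 and replicates 5 to 7 carry library numbers from different ranges, and values within these sets are given for *Ddc*, *Htr1b*, *Prlr* and some genes set beside them. In replicates 1 to 4 the library numbers run group by group. In replicates 5 to 7 each replicate number holds consecutive library numbers for RD, HFD and HFD-O304. In bulk RNA from islets, fewer cells of a type and less RNA per cell cannot be told apart.

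The members fell into an abundant pair and a sparse remainder. Levels between genes were compared as RPKM, read pairs per kilobase of exon scaled to the library size. *Prlr* had a mean of 30.7 RPKM over the 21 samples (rank 957 of 27229 genes), *Ddc* had 3.32 times that level (rank 189), and *Ddc* was above *Prlr* in 21 of 21 samples. *Tph2* followed at 0.323 RPKM and *Htr1b* at 0.289, and these neighbours did not separate, since *Tph2* was the higher in 15 of 21 samples. *Htr3a* had a mean of 0.107 RPKM, most of it from 1 sample. *Htr1d* (0.0102 RPKM), *Slc18a2* (0.00770), *Tph1* (0.00512) and *Htr2b* (0.00221) had overlapping ranges, with 26, 33, 25 and 4 read pairs in all. At these counts the order within this last set was not resolved, and the prolactin receptor stood 95.1-fold above *Tph2*, the next member below it.

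**Figure D1:**
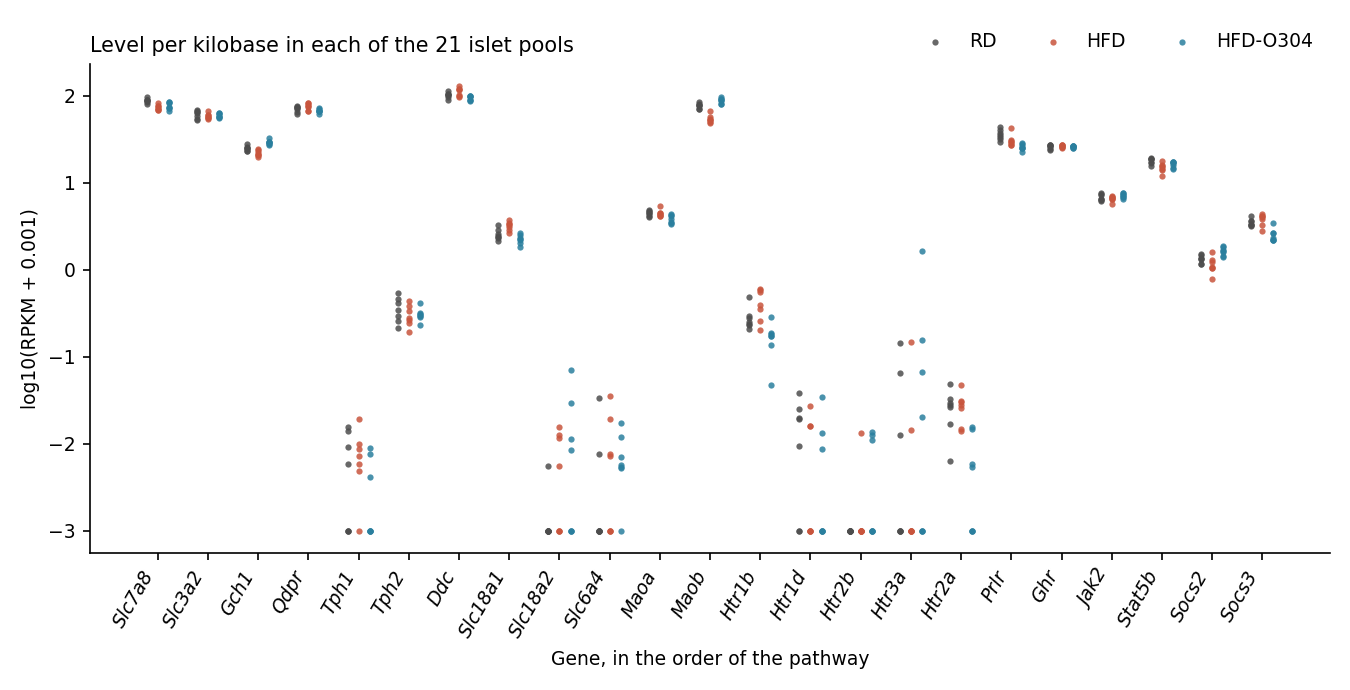
Levels of the 9 members and of other genes of the pathway in the 21 islet pools, as log10(RPKM + 0.001), with genes on the horizontal axis from tryptophan uptake (left) to prolactin signalling (right) and 1 point per pool. *Ddc* (rank 189 of 27229 genes) and *Prlr* (30.7 RPKM) sit with the transporter, cofactor and breakdown genes at the top, and points at -3 are pools without a read pair.

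Both tryptophan hydroxylase genes were low in all groups. *Tph1* (ENSMUSG00000040046, chr7:46644641-46672537 of GRCm38, minus strand) had between 0 and 4 read pairs per sample, with sums of 9 (RD), 11 (HFD) and 5 (HFD-O304), and was detected in 13 of 21 samples. *Tph2* (ENSMUSG00000006764, chr10:115078641-115185022, minus strand) was detected in each sample. Its normalized counts (counts divided by the size factor of the sample) ranged from 21.96 to 55.5 in RD with a median of 35.2, from 20.02 to 46.7 in HFD with a median of 28.7, and from 24.0 to 44.4 in HFD-O304 with a median of 30.6. The 3 ranges of *Tph2* overlapped nearly in full.

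Neither gene differed between the groups at the threshold of an adjusted p under 0.01. The log2 fold change of *Tph2* was -0.24 (SE 0.21) in HFD vs RD, -0.25 (SE 0.21) in HFD-O304 vs RD, while it was -0.00 (95% interval -0.43 to 0.43) in HFD-O304 vs HFD, with edgeR adjusted p of 0.577, 0.659 and 0.996. For *Tph1*, the ratio of summed counts was 1.23 in HFD vs RD (95% interval 0.462 to 3.35), 0.502 in HFD-O304 vs RD (0.132 to 1.67), and 0.409 in HFD-O304 vs HFD (0.112 to 1.28), intervals that cover counting error only. All 3 intervals span 1, so that a difference of *Tph1* between the groups was not detectable at this depth.

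*Ddc* (ENSMUSG00000020182, chr11:11814101-11898144, minus strand), the decarboxylase that also acts in the dopamine branch, was among the more abundant genes of these islets. Its normalized counts ranged from 14426 to 18385 in RD (median 16574), from 15529 to 21083 in HFD (median 19052) and from 13872 to 15957 in HFD-O304 (median 15628). The means were 16351 ± 1229, 18082 ± 2078 and 15132 ± 908 (SD, n = 7 each). Each of the 7 HFD-O304 pools lay below the HFD median and 3 lay below the lowest HFD pool, so that the groups still overlapped.

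The level of *Ddc* fell by 0.25 on the log2 scale in HFD-O304 vs HFD (SE 0.06, edgeR adjusted p = 0.00600). In HFD vs RD its log2 fold change was 0.14 (adjusted p = 0.208) and in HFD-O304 vs RD -0.11 (adjusted p = 0.461), both short of the threshold. The HFD pools parted by library set. HFD replicates 1 to 4 lay between 19052 and 21083 normalized counts and HFD replicates 5 to 7 between 15529 and 16358. Means were also higher in replicates 1 to 4 than in replicates 5 to 7 in RD (16971 against 15525) and HFD-O304 (15519 against 14616). Within replicates 1 to 4 the log2 fold change of HFD-O304 vs HFD was -0.35 (adjusted p = 0.00179), and within replicates 5 to 7 it was -0.13 (adjusted p = 0.242). The difference between the sets had an edgeR interaction p of 0.0351, which did not pass after adjustment (adjusted p = 0.9999). The sets hold 4 and 3 pools per group, so that a call in the first set alone does not show a dependence on the set. Leaving out 1 pool at a time ended the call of *Ddc* in 7 of 21 cases, those without HFD replicates 1, 2, 3 or 4 or HFD-O304 replicates 1, 5 or 7.

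The 250 bases before the RefSeq starts of *Ddc* (GRCm38.p6, chromosome 11, minus strand) are printed because this gene passed in HFD-O304 vs HFD and has 2 annotated starts that gene-level counts cannot tell apart. The first window is chr11:11898145-11898394 and the second is chr11:11890409-11890658. Capitals mark TATAAA or CCAAT on either strand.

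Ddc start 1: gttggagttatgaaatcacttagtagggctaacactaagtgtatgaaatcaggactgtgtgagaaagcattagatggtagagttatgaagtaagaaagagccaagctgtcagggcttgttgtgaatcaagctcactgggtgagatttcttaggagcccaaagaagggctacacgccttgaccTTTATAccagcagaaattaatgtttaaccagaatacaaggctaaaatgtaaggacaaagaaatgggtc
Ddc start 2: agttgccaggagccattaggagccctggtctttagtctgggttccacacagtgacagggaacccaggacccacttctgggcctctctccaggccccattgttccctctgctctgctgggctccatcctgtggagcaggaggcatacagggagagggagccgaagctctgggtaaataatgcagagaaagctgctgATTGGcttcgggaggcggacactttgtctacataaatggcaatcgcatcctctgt

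The first window holds 1 TATAAA on the reverse strand, 63 to 68 bases before the start, and its GC content is 40.8%. The second holds 1 CCAAT on the reverse strand, 51 to 55 bases before the start, at a GC content of 56.0%. Of the 9 genes, 8 had such a window. The motifs searched on both strands in the 32851 RefSeq windows of this length were 5 in number: TATAAA occurred in 12.4%, CCAAT in 33.8%, GGGCGG in 32.7%, TTCNNNGAA (the palindrome bound by STAT factors) in 7.02% and TGACGTCA (the cyclic AMP response element) in 1.55%. None of these motifs overlapped another in the windows printed here. A match is a description of the letters and was not tied to the counts.

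*Slc18a2* (ENSMUSG00000025094, chr19:59260896-59296012, plus strand) encodes VMAT2, a vesicular monoamine transporter. Its read pairs summed to 1 (RD), 7 (HFD) and 25 (HFD-O304); of the last, 15 came from replicate 4, 6 from replicate 5, and 2 each from replicates 6 and 7. The other 3 HFD-O304 pools had none. *Slc18a2* reached the minimum of 10 read pairs only through the HFD-O304 group, and its log2 fold change was 3.69 in HFD-O304 vs RD (SE 1.09, edgeR adjusted p = 0.0663), which did not pass. Without HFD-O304 replicate 4 this value was 2.65 (adjusted p = 0.238). The ratio of summed counts in HFD-O304 vs RD, against a single read pair, was 22.6 (95% interval 3.70 to 927). That in HFD-O304 vs HFD was 3.22 (95% interval 1.35 to 8.81). Both intervals cover counting error only and leave out the spread between pools, so that they do not show a difference between the groups.

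Reads at the *Slc18a2* locus lay almost entirely on the opposite strand. Over the 21 samples the gene's own strand held 33 read pairs and the opposite strand 1189, which gives a share of 97.3% for the opposite strand. Opposite-strand read pairs per pool ranged from 39 to 72 in RD (median 50), from 44 to 91 in HFD (median 54) and from 30 to 84 in HFD-O304 (median 58), so that the groups overlapped. The nearest protein-coding gene on that strand, *Pdzd8* (chr19:59297178-59345780), ends 1165 bases beyond the end of *Slc18a2* and had 913 to 3197 read pairs per sample. Whether these reads come from *Pdzd8* transcripts was not tested. With unstranded counts, the log2 fold change of *Slc18a2* in HFD-O304 vs RD was 0.21 (adjusted p = 0.669) in place of 3.69.

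**Figure D2:**
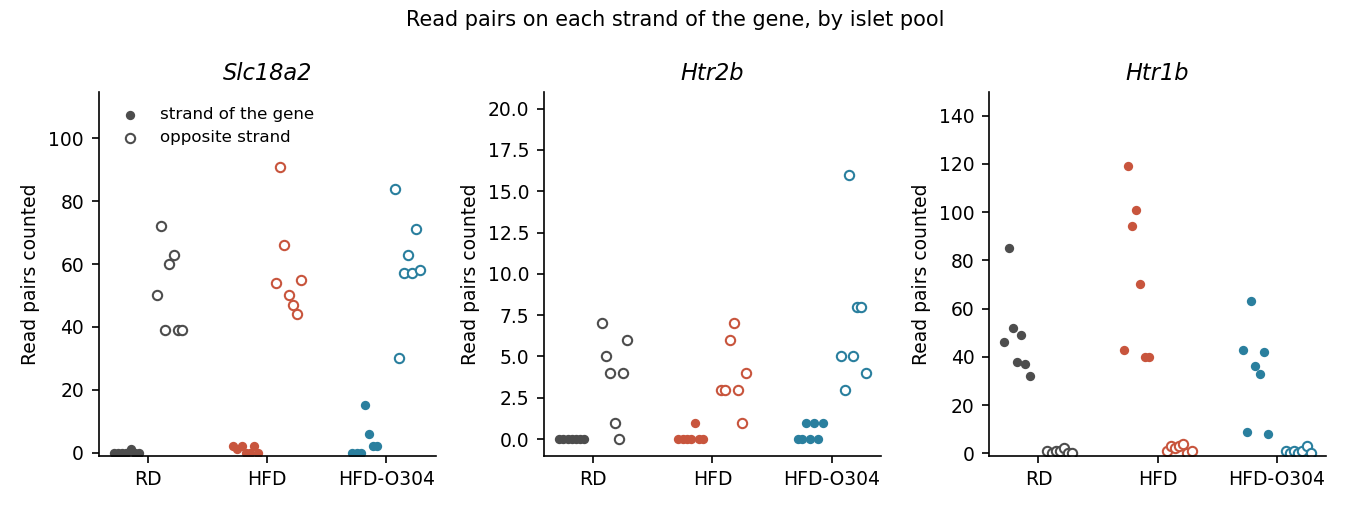
Read pairs counted on the gene's own strand (filled) and on the opposite strand (open) for *Slc18a2*, *Htr2b* and *Htr1b*, 1 point per islet pool in each diet group. *Slc18a2* and *Htr2b* carry nearly all reads on the opposite strand (97.3% and 96.3% of the read pairs summed over the 21 pools), and *Htr1b* on its own (1080 against 25).

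The other vesicular monoamine transporter, VMAT1, encoded by *Slc18a1*, was the more abundant of the pair at 2.65 RPKM. Its normalized counts ranged from 419 to 624 in RD, from 515 to 724 in HFD and from 357 to 510 in HFD-O304, and the HFD and HFD-O304 groups did not overlap. *Slc18a1* fell by 0.51 on the log2 scale in HFD-O304 vs HFD (SE 0.09, adjusted p = 0.000216), while its 0.32 in HFD vs RD did not pass (adjusted p = 0.0325). Its HFD pools also parted by library set, from 638 to 724 in replicates 1 to 4 and from 515 to 598 in replicates 5 to 7. The RD pools of *Slc18a1* parted too (471 to 624 against 419 to 466). In HFD-O304 the sets overlapped (422 to 510 against 357 to 433).

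*Htr1b* (ENSMUSG00000049511, chr9:81628291-81633828, minus strand) encodes a receptor coupled to inhibitory G proteins, and it was the most abundant serotonin receptor gene of the 14 examined. Its normalized counts ranged from 35.1 to 81.3 in RD (median 42.4), from 34.8 to 103.2 in HFD (median 66.1) and from 7.86 to 48.0 in HFD-O304 (median 29.4). The means were 48.0 ± 15.5, 72.0 ± 27.9 and 28.7 ± 11.9 (SD, n = 7 each). Of the HFD-O304 pools, 6 lay below the lowest HFD pool and the same number below the lowest RD pool, with HFD-O304 replicate 3 inside both ranges.

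In HFD-O304 vs HFD, *Htr1b* fell by 1.29 on the log2 scale (SE 0.28, edgeR adjusted p = 0.00110), to 0.409 of the HFD level (95% interval 0.276 to 0.606). Its value of 0.58 in HFD vs RD (SE 0.26, adjusted p = 0.201) and of -0.71 in HFD-O304 vs RD (SE 0.28, adjusted p = 0.212) did not pass. These comparisons share samples, the HFD pools or the RD pools, and are not independent of each other. As for *Ddc*, the HFD pools differed by library set, with a mean of 89.9 ± 19.7 normalized counts in replicates 1 to 4 (SD, n = 4) and 48.2 ± 16.1 in replicates 5 to 7 (SD, n = 3). Here the lowest of the former (60.9) lay below the highest of the latter (66.1). Means were also higher in replicates 1 to 4 in RD (54.7 against 38.9) and HFD-O304 (33.6 against 22.2). The log2 fold change of HFD-O304 vs HFD was -1.38 (adjusted p = 0.00130) in the first set and -1.08 (adjusted p = 0.0504) in the second. The call held without each of the 21 pools in turn, and was lost (adjusted p = 0.0109) without HFD-O304 replicates 1, 2 and 4 together, an alternative chosen after the data were seen.

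An antisense gene, *D430036J16Rik*, shares 852 exon bases with *Htr1b* and had at most 3 read pairs in a sample. *Htr1b* had 1080 read pairs on its own strand and 800 in the unstranded count, where pairs in the shared bases are left out. The unstranded counts gave a log2 fold change of -1.36 in HFD-O304 vs HFD (adjusted p = 0.00301).

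The window before the single RefSeq start of *Htr1b*, chr9:81633833-81634082 of GRCm38.p6 on the minus strand, is shown because this gene had the largest change among the members that passed. Capitals mark CCAAT on the reverse strand.

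Htr1b: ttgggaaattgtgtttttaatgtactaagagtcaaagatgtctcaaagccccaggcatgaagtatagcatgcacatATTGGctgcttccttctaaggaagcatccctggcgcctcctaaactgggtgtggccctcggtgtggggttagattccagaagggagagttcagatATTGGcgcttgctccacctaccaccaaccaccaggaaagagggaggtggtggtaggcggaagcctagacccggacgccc

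It holds 2 CCAAT, at 75 to 79 and 170 to 174 bases before the start, and neither TATAAA nor TGACGTCA is among its letters. Its GC content of 52.4% equals the median over the 32851 windows.

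**Figure D3:**
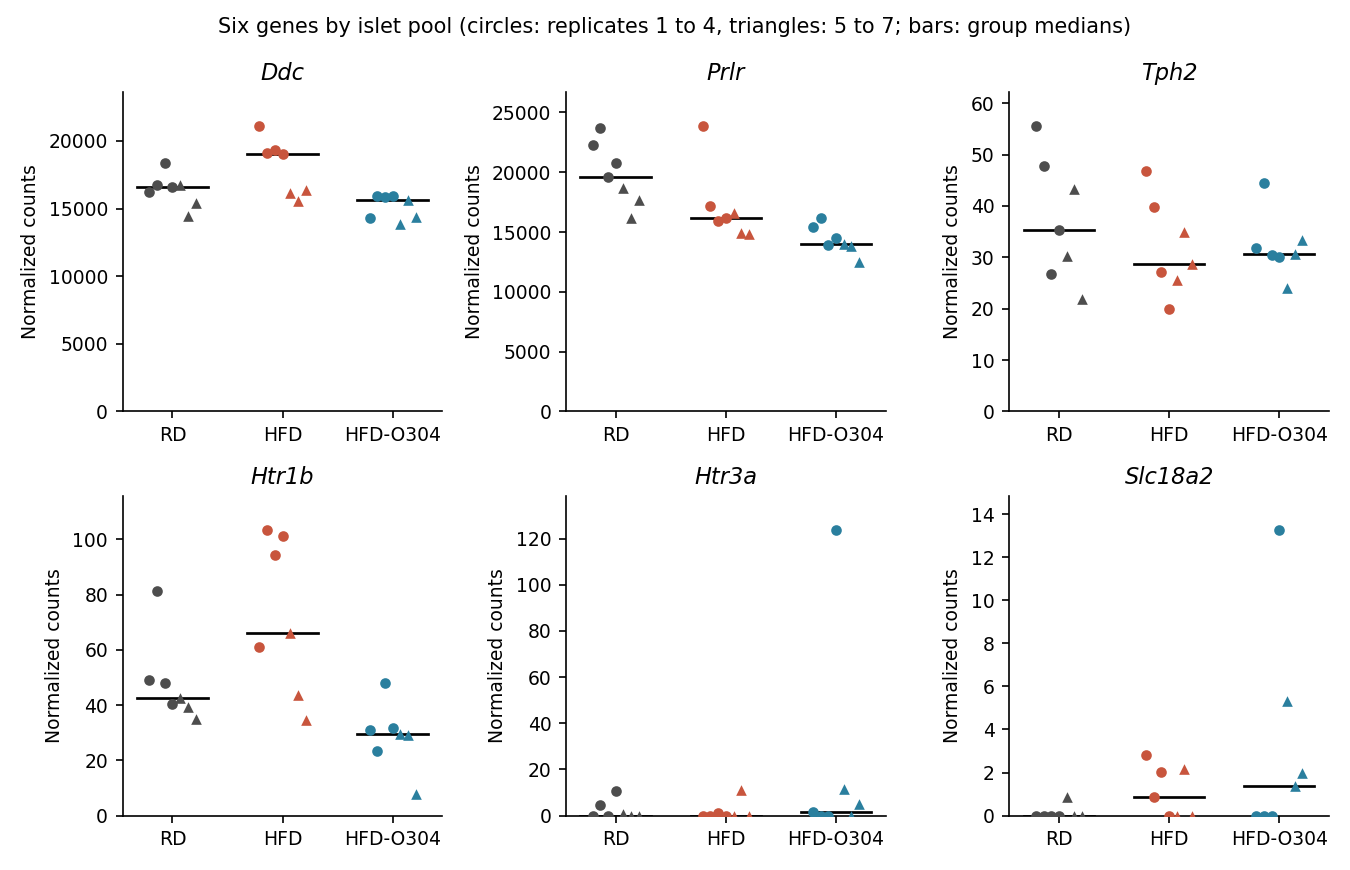
Normalized counts of 6 genes by diet group, with 1 point per islet pool, circles for replicates 1 to 4, triangles for replicates 5 to 7 and bars at the group medians. HFD circles of *Ddc* (19052 to 21083) lie above the HFD triangles (15529 to 16358), *Prlr* is lowest in HFD-O304 (median 13972), and HFD-O304 replicate 4 stands alone for *Htr3a* (124) and *Slc18a2* (13.2).

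*Htr1d* (ENSMUSG00000070687, chr4:136423524-136444398, plus strand), a close relative of *Htr1b* with the same coupling, had sums of 12 (RD), 7 (HFD) and 7 (HFD-O304) read pairs, and was detected in 11 of 21 samples. The ratio of its summed counts was 0.585 in HFD vs RD (95% interval 0.195 to 1.61) and 0.901 in HFD-O304 vs HFD (0.270 to 3.01), both spanning 1. The 4 pools of HFD-O304 replicates 1 to 4 had no read pair, and replicates 5 to 7 had 1, 2 and 4. The corresponding interaction with library set had an edgeR p of 0.00562 in HFD-O304 vs RD, which did not pass (adjusted p = 0.854).

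*Htr2b* (ENSMUSG00000026228, chr1:86099026-86111970, minus strand) encodes a receptor coupled to Gq and is the receptor linked to β-cell expansion in pregnancy. It had no read pair in RD, which allows up to 3 in the group by counting error, 1 in HFD and 3 in HFD-O304, all at or under this floor, so that no fold is given. The gene lies within *Psmd1* (chr1:86064387-86139151), a proteasome subunit gene on the opposite strand, shares 252 exon bases with it, and had 96.3% of the read pairs of its exons on that strand. *Psmd1* had 1419 to 5971 read pairs per sample.

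*Htr3a* (ENSMUSG00000032269, chr9:48899213-48911099, minus strand) encodes a subunit of the serotonin-gated cation channel and is a known marker of some enteric and peripheral neurons. Read pairs in RD were 0, 5, 0, 10, 1, 0 and 0 for replicates 1 to 7. In HFD they were 0, 0, 1, 0, 0, 10 and 0. In HFD-O304 they were 2, 0, 0, 140, 13, 0 and 5. HFD-O304 replicate 4 thus held 74.9% of all *Htr3a* read pairs, and 9 of 21 samples had at least 1.

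No comparison of *Htr3a* passed. Its log2 fold change was 3.61 in HFD-O304 vs HFD (SE 1.19, edgeR adjusted p = 0.0328) and 3.12 in HFD-O304 vs RD (SE 1.119, adjusted p = 0.153). Without HFD-O304 replicate 4 these values were 0.89 (adjusted p = 0.676) and 0.41 (adjusted p = 0.928). Without HFD replicate 6, whose 10 read pairs made up most of the HFD sum, the former was 6.20 (adjusted p = 0.00796).

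A neuronal marker was highest in the same pool. *Prph*, the intermediate filament peripherin of peripheral neurons, had 122 read pairs in HFD-O304 replicate 4 and at most 40 in any other of the 20 samples. *Tac1*, which encodes substance P and is listed here among enterochromaffin markers, had 49 and at most 13. HFD-O304 replicates 5 and 7, the next highest for *Prph*, were also the next highest HFD-O304 pools for *Htr3a*. The summed normalized counts of the 7 neuron and Schwann cell markers ranged from 811 to 969 in RD, from 812 to 994 in HFD and from 706 to 993 in HFD-O304, and *Foxd3* had no read pair. The ductal chloride channel gene *Cftr* had 92 read pairs in HFD-O304 replicate 4 and at most 23 elsewhere, and was called higher in HFD-O304 vs HFD with *Krt19* and *Sox9*, 3 of 6 duct markers. The part of other cells in the *Htr3a* and *Slc18a2* counts was not tested.

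**Figure D4:**
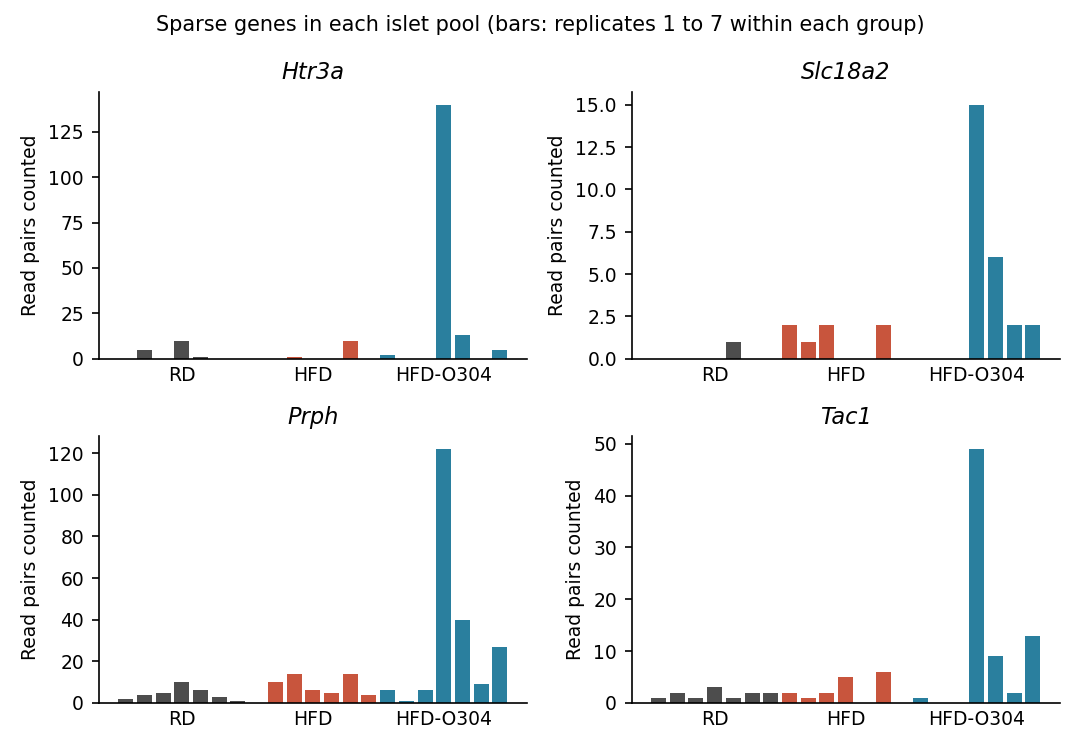
Read pairs per islet pool for *Htr3a*, *Slc18a2*, *Prph* and *Tac1*, with bars for replicates 1 to 7 of each group from left to right. HFD-O304 replicate 4 is the highest bar in all 4 panels, at 140, 15, 122 and 49 read pairs.

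*Prlr* (ENSMUSG00000005268, chr15:10177238-10349180, plus strand) encodes the receptor of prolactin and placental lactogen, and was abundant in all pools. Its normalized counts ranged from 16157 to 23743 in RD (median 19598), from 14877 to 23850 in HFD (median 16188) and from 12476 to 16205 in HFD-O304 (median 13972). The means were 19858 ± 2637, 17071 ± 3102 and 14338 ± 1201 (SD, n = 7 each). The order RD, HFD, HFD-O304 held for the medians and the means, and 6 of 7 HFD-O304 pools lay below the lowest RD pool. HFD replicate 1 stood above the highest RD pool, and the next HFD pool had 17161.

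*Prlr* fell by 0.47 on the log2 scale in HFD-O304 vs RD (SE 0.09, edgeR adjusted p = 0.00257), to 0.722 of the RD level (95% interval 0.634 to 0.821). Its values of -0.22 in HFD vs RD (SE 0.09, adjusted p = 0.136) and -0.25 in HFD-O304 vs HFD (SE 0.09, adjusted p = 0.0576) did not pass. With the replicate number as a term in the fit, *Prlr* did pass in HFD-O304 vs HFD (edgeR adjusted p = 0.00415). The comparisons of HFD and of HFD-O304 with RD share the RD pools, and both comparisons with HFD share the HFD pools. Without HFD replicate 1 the log2 fold change was -0.31 in HFD vs RD (adjusted p = 0.0102) and -0.15 in HFD-O304 vs HFD (adjusted p = 0.202). RD replicates 1 to 4 lay between 19598 and 23743 normalized counts and RD replicates 5 to 7 between 16157 and 18717, without overlap. Within replicates 1 to 4, HFD-O304 vs RD had a log2 fold change of -0.54 (adjusted p = 0.0163), and within replicates 5 to 7 of -0.39 (adjusted p = 0.00259). Without RD replicate 2, the highest RD pool, the call was lost at a log2 fold change of -0.41 (adjusted p = 0.0117), and it was also lost without HFD-O304 replicates 1, 2 and 4 together (-0.54, adjusted p = 0.0107).

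*Prlr* has 3 RefSeq starts on the plus strand of chromosome 15, and the windows before the first, chr15:10176988-10177237, and the second, chr15:10223656-10223905, are shown because they hold the motifs that were found. Capitals mark CCAAT in the first window and TTCNNNGAA in the second. The third window, chr15:10293401-10293650, holds none of the 5 motifs.

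Prlr start 1: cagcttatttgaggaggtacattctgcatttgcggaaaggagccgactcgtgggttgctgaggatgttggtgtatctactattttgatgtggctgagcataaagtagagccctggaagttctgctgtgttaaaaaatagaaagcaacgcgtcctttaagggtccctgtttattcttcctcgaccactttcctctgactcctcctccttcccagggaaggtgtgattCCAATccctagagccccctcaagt
Prlr start 2: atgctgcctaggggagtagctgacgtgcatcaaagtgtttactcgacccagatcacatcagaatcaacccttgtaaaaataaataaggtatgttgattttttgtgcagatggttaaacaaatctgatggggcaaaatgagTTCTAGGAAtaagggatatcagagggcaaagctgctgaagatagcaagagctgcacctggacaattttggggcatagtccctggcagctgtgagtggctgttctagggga

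The CCAAT lies 20 to 24 bases before the first start, and the TTCNNNGAA starts 110 bases before the second. In GENCODE, 1 of the 12 transcripts of *Prlr* begins within 50 bases of the first start and 0 within 50 bases of the second or the third. The counts are per gene, so that the use of these starts was not measured.

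Across the members, the calls stood as follows. In HFD vs RD, edgeR called 0 of the 8 tested members, against 3.54% of all 27229 genes (2.00% higher and 1.54% lower in HFD). At an unadjusted edgeR p under 0.05 there were 3 of the 8 members and 5714 of the 27229 genes, and DESeq2 called 0 members. In HFD-O304 vs RD it called 1 of 8, *Prlr*, as lower, where 1.31% of all genes were called (0.404% higher and 0.903% lower). In HFD-O304 vs HFD it called 2 of 8, *Ddc* and *Htr1b*, both as lower, where 11.9% of all genes were called (5.08% higher and 6.79% lower). The median log2 fold change of the 8 tested members was -0.04, -0.36 and -0.17 in the 3 comparisons, and that of all genes tested was -0.00, 0.01 and 0.03. DESeq2 called the same numbers of members, 0, 1 and 2.

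**Figure D5:**
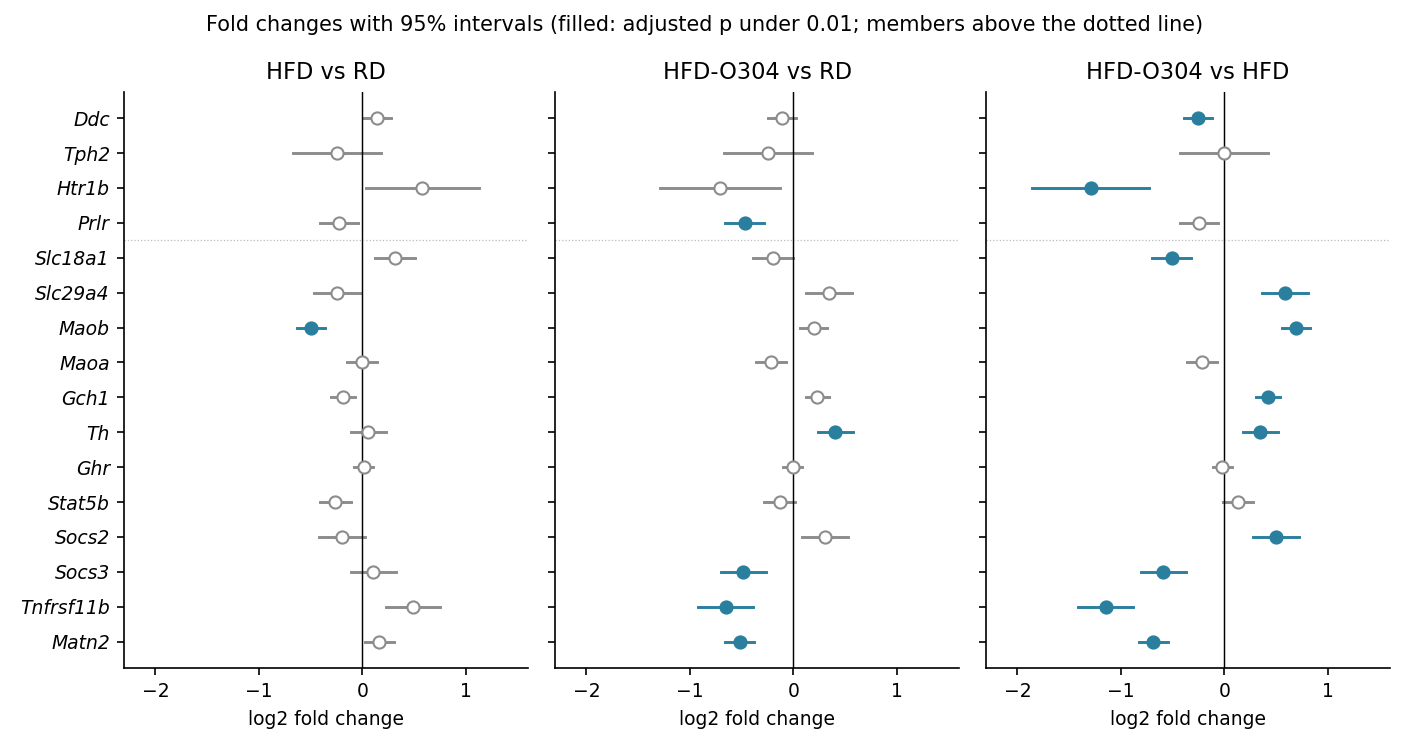
Log2 fold changes with 95% intervals from edgeR for *Ddc*, *Tph2*, *Htr1b* and *Prlr* (above the dotted line) and 12 other genes of the pathway, in the 3 comparisons, with filled points at an adjusted p under 0.01. *Prlr* is filled in HFD-O304 vs RD (-0.47), and *Ddc* (-0.25) and *Htr1b* (-1.29) in HFD-O304 vs HFD.

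The members that were abundant enough to be followed pool by pool varied together in part. Over the 21 samples, where both genes are counted in the same libraries and the diet groups add to the relation, Spearman's rho was 0.79 between *Ddc* and *Htr1b*, 0.61 between *Ddc* and *Prlr* and 0.06 between *Ddc* and *Tph2*. With each group centred on its mean, these values were 0.61, 0.47 and 0.04. *Tph2* had a rho of 0.35 with *Prlr* (0.47 within groups) and of 0.03 with *Htr1b* (-0.05 within groups). Centring by group leaves differences between the library sets in place. *Ddc*, *Htr1b*, *Prlr*, *Tph2*, *Slc18a1* and *Mki67* all had higher means in replicates 1 to 4 than in replicates 5 to 7 of each group. *Slc18a1* followed *Ddc* (0.87, or 0.83 within groups) and *Htr1b* (0.86, or 0.67 within groups). *Mki67*, a proliferation marker, also did so (0.72 with *Ddc* and 0.78 with *Htr1b*, or 0.66 and 0.48 within groups). In HFD, *Mki67* had 677 to 1221 normalized counts in replicates 1 to 4 and 196 to 510 in replicates 5 to 7. Among 13216 genes with 50 or more normalized counts on average, the 3 genes most like *Ddc* by Spearman's rho over the 21 samples were *Atp6ap1* (0.914), *Abhd6* (0.908) and *Chid1* (0.906). For *Prlr* they were *Ccnh* (0.874), *Gdap2* (0.873) and *Kif5b* (0.871). These are descriptions over samples that differ in depth and diet, and no test was made.

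Several cell type markers moved with the groups in which *Ddc*, *Htr1b* and *Prlr* were called, and their part in these results was not tested. In HFD-O304 vs HFD, 6 of 7 α-cell markers were called higher and 1, *Gc*, lower, and 6 of 6 proliferation genes and 5 of 7 fibroblast and pericyte markers were called lower. Summed normalized counts of the α-cell markers ranged from 314184 to 630057 in HFD and from 841555 to 1129730 in HFD-O304, and those of the proliferation genes from 661 to 3730 and from 299 to 670. Those of the fibroblast and pericyte markers ranged from 11151 to 19767 and from 5958 to 9787. Of 9 β-cell markers, 2 were called higher (*Slc2a2* and *Ucn3*) and 3 lower (*Ins1*, *Ins2* and *Iapp*). Their summed counts ranged from 11792400 to 13779300 in HFD and from 9391810 to 11137100 in HFD-O304, without overlap, and from 10184900 to 12317700 in RD.

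In HFD-O304 vs RD, where *Prlr* was called, edgeR called 0 of 9 β-cell and 0 of 7 α-cell markers. It called 0 of 6 delta and PP cell and 0 of 6 proliferation markers, where 1.31% of all genes were called. *Rgs5*, *Acta2* and *Pecam1*, markers of pericytes and endothelium, were called lower there and the ductal *Krt19* higher. Acinar markers, whose summed counts ranged from 165 to 288431 over the 21 pools, were not called in any comparison.

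Markers of cells known for serotonin elsewhere ranged from no read pair to levels above that of *Tph2*. Of 8 mast cell markers, *Mcpt4*, *Tpsb2* and *Mrgprb1* had no read pair, and *Cma1*, *Fcer1a* and *Ms4a2* had fewer than 10. *Kit*, which other cell types also express, was called lower in HFD vs RD (log2 fold change -0.65) and higher in HFD-O304 vs HFD (0.87). Of 5 platelet markers, 4 were tested and 0 were called in any comparison. *Gp9* and *Itga2b* had 770 and 490 read pairs in all and were detected in 21 of 21 samples, while *Pf4*, *Gp1bb* and *Ppbp* had 31, 11 and 5. Among the enterochromaffin markers, *Lmx1a* had fewer than 10 read pairs, *Trpa1*, an ion channel (924 read pairs in all), was called lower in HFD vs RD (-0.77), and *Fev*, a transcription factor of serotonergic neurons (3460 read pairs), was called higher in HFD-O304 vs HFD (0.69). *Chga*, which all endocrine cells share, was the most abundant of them and did not pass in any comparison.

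Of the 10 other serotonin receptor genes, 3 were tested. *Htr2a* had sums of 37 (RD), 38 (HFD) and 10 (HFD-O304) read pairs, and was called lower in HFD-O304 vs HFD (log2 fold change -2.004, adjusted p = 0.00899). *Htr5a* and *Htr7* were not called in any comparison.

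In the list of serotonin transport and breakdown, *Maob*, a monoamine oxidase, was the most abundant of 10 genes at 72.7 RPKM. Its normalized counts were 6994 to 8568 (RD), 4933 to 6809 (HFD) and 8102 to 9565 (HFD-O304), so that HFD overlapped neither other group. *Maob* fell by 0.49 on the log2 scale in HFD vs RD (adjusted p = 3.45e-05) and was higher by 0.69 in HFD-O304 vs HFD (adjusted p = 2.27e-08). *Slc29a4*, the plasma membrane monoamine transporter, was higher by 0.59 in HFD-O304 vs HFD (adjusted p = 0.000240). Of the 9 genes tested in this list, edgeR called 3 in HFD-O304 vs HFD, where 11.9% of all genes were called. It called 1 in HFD vs RD (3.54% of all genes) but 0 in HFD-O304 vs RD (1.31% of all genes). *Slc6a4*, the serotonin transporter, had 24 read pairs in all and did not pass.

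Genes of tryptophan uptake and of tetrahydrobiopterin, the cofactor of the hydroxylases, were well expressed beside the low *Tph1* and *Tph2*. The 11 genes were all tested, and *Pcbd1*, which helps to regenerate the cofactor, was the most abundant at 129 RPKM. *Slc7a8*, a transporter of large neutral amino acids, fell by 0.25 in HFD vs RD (adjusted p = 0.00752), the single call of that comparison. In HFD-O304 vs HFD, *Gch1*, the rate-limiting enzyme of cofactor synthesis, was higher by 0.42 on the log2 scale and *Pts* by 0.46. *Th*, the tyrosine hydroxylase that uses the same cofactor and feeds *Ddc* in the dopamine branch, was higher in HFD-O304 by 0.41 over RD and by 0.35 over HFD (adjusted p = 0.00390 and 0.00257). The dopamine receptor gene *Drd2* fell by 1.402 in HFD-O304 vs HFD. Of the 5 genes of this branch that were tested, 2 were called in that comparison, *Th* and *Drd2*, against 11.9% of all genes.

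Of 14 genes of prolactin and growth hormone signalling, which lie downstream of *Prlr* or beside it, 13 were tested. EdgeR called 2 in HFD-O304 vs HFD, 1 in HFD-O304 vs RD, but 0 in HFD vs RD. The shares called over all genes in these comparisons were 11.9%, 1.31% and 3.54%. *Ghr*, the growth hormone receptor that shares JAK2 and STAT5 with *Prlr*, had a log2 fold change of -0.01 in HFD-O304 vs RD (95% interval -0.10 to 0.09), and at 25.9 RPKM its level was near that of *Prlr*. *Stat5b* had -0.13 (adjusted p = 0.428) and *Jak2* 0.07 (adjusted p = 0.691) in that comparison. The feedback inhibitor *Socs3* fell in HFD-O304 by 0.48 against RD (adjusted p = 0.00867) and by 0.59 against HFD (adjusted p = 0.000164), and *Socs2* was higher by 0.50 in HFD-O304 vs HFD (adjusted p = 0.00121). *Cish*, another inhibitor of this family, was not called.

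Of 12 genes that lactogens are known to change in islets, 2 were called in HFD-O304 vs RD, both lower. Of all genes, 1.31% were called in that comparison (0.903% lower). *Tnfrsf11b*, which encodes osteoprotegerin, fell by 0.65 (adjusted p = 0.00346) and *Matn2*, an extracellular matrix gene, by 0.52 (adjusted p = 2.94e-05). In HFD-O304 vs HFD they fell by 1.14 and 0.68, *Foxm1* and *Birc5*, cell cycle genes, fell by 1.03 and 2.00, and *Ccnd2* and *Socs2* were higher by 0.29 and 0.50. In HFD vs RD, *Foxm1* and *Birc5* were higher by 0.83 and 1.69, and *Ccnd2* and *Ivd* fell by 0.26 and 0.41. *Tph1*, which lactogens also induce, kept between 0 and 4 read pairs in each of the 21 pools.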

How the data were processed

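RNA from pooled islets was sequenced in 21 libraries, 7 each of RD, HFD and HFD-O304. Per the labels and the study's methods, reads were aligned with STAR to GRCm38, and the authors deposited raw read-pair counts per gene for unstranded, first-strand and second-strand counting. The last of these was used, since it exceeded the other strand by 28.76 to 36.26 times in each library. Read pairs not assigned to genes made up 18.507% to 24.872% of the total and stayed out of library sizes. Counts on genes ranged from 13809266 to 48922569. STAR and FastQC versions are not given in the sources used here.

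Genes with at least 10 read pairs over the 21 samples (27229) were fitted with edgeR 4.0.16 (R 4.3.3), using TMM library sizes, its quasi-likelihood test over all 3 groups without covariates, and Benjamini-Hochberg adjusted p under 0.01 as the threshold. The standard error was the log2 fold change over the square root of F. Normalized counts are counts divided by DESeq2 1.42.0 size factors. RPKM used GENCODE exon lengths. The fit was tested on simulated data before use. Replicates are pools of islets, so p-values cover the spread between pools. Library pairs within a group differed by 8.05 to 101 times the sampling variance per gene, and none was treated as a repeat of another.

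The 9 members, the 19 other gene lists and the library sets were chosen with earlier results of these data known. All 9 members are named. Of each other list, the genes called in any comparison and the most abundant are named, and for each member with 50 or more normalized counts on average the 3 genes most like it. Alternatives were the DESeq2 Wald test, DESeq2 size factors, other filters, unstranded counts, an adjusted p under 0.05, fits with the library set or replicate number as a term, only the groups compared, each library set alone, and each sample left out. Counting intervals and floors cover counting error only. Promoter windows are from RefSeq (GRCm38.p6). Some genes of the lists are not reported here.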

Additional observations from a re-analysis of the deposited data

Results flagged for a closer look

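Of 19 sets of 7 pools tested, 6 held a pool whose gap to its nearest neighbour exceeded the 95% limit of Dixon's ratio. Chance gives about 1 in 20. A further 8 sets, in which no pool had more than 3 read pairs, were not tested. *Prlr* in HFD replicate 1 had 23850 normalized counts and the nearest HFD pool 17161. *Htr1b* in RD replicate 2 had 81.3 and the nearest RD pool 49.1. *Htr3a* in HFD-O304 replicate 4 had 124 and the nearest pool of that group 11.6, and *Slc18a2* in the same pool had 13.2 and the nearest 5.34. *Htr3a* in HFD replicate 6 had 10.9 and the nearest HFD pool 1.004. *Htr1d* in HFD-O304 replicate 7 had 3.93 and the nearest pool of that group 1.39. The values of *Htr3a*, *Slc18a2* and *Htr1d* rest on few read pairs.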

How the results depend on the processing

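In HFD vs RD, 0 members were called in each of the 33 alternatives. In HFD-O304 vs RD, the count of 1 (*Prlr*) was 0 with replicates 1 to 4 only, 0 without HFD-O304 replicates 1, 2 and 4 together (chosen after the data were seen) and 0 to 1 when 1 sample was left out. In HFD-O304 vs HFD, the count of 2 was 1 with a row sum above 0 as the filter, 1 with only the 2 groups compared, 0 with replicates 5 to 7 only, 0 without HFD-O304 replicates 1, 2 and 4 together, and 1 to 3 when 1 sample was left out. The log2 fold change ranged from -0.54 to -0.39 for *Prlr* in HFD-O304 vs RD (past the threshold in 30 of 33), and in HFD-O304 vs HFD from -0.35 to -0.13 for *Ddc* (22 of 33) and from -1.47 to -1.08 for *Htr1b* (31 of 33). No value past the threshold changed sign, but 26 of 771 did so among those short of it, as *Tph2* in HFD-O304 vs HFD (near 0) and *Htr3a* in HFD vs RD, which went from -0.49 to 2.96 with replicates 5 to 7 only. The cause of the lost calls was not tested. Over all genes, calls ranged over the alternatives from 486 to 2148 in HFD vs RD (963 as reported, 1758 with DESeq2), from 88 to 785 in HFD-O304 vs RD (356, and 727 with DESeq2) and from 1577 to 5150 in HFD-O304 vs HFD (3230). With the replicate block, 0, 1 and 3 members were called, and *Prlr* in HFD-O304 vs HFD had a log2 fold change of -0.24 (edgeR adjusted p = 0.00415), with 1577, 543 and 3763 calls over all genes. Same-numbered samples correlated with a mean of 0.199, 0.294 and 0.136 over 13216 genes, above 0.1 in 4, 6 and 5 of 7 pairs. They correlated best with their own number in 3, 2 and 2 of 7, and the main fit did not take the numbers as pairs. These values pool both library sets. They cannot decide whether replicates 5 to 7, with consecutive library numbers across the groups, are matched, and pairing within that set was not tested. Depth limits *Tph1*, *Slc18a2*, *Htr1d*, *Htr2b* and *Htr3a*, which had 4 to 187 read pairs in all.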

Other observations

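Among markers of other cells not described above, *Csf1r*, the receptor of macrophage growth factor, was called higher in HFD-O304 vs HFD, 1 of 6 macrophage markers. *Cdh5* and *Pecam1*, 2 of 5 endothelial markers, were called lower in that comparison. Of 6 delta and PP cell markers, *Sst*, *Ghsr*, *Rbp4*, *Hhex* and *Pyy* were called higher there, and *Sst*, *Ghsr* and *Rbp4* were called lower in HFD vs RD.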
